A study of Homo sapiens with 9 samples.

Results

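The mitochondrial ribosomal proteins are the proteins of the ribosome that works inside mitochondria. They were taken as every gene whose symbol is MRPL or MRPS followed by a number. The count table of 19569 genes held 78 such genes: 51 encode proteins of the large subunit, 26 encode proteins of the small subunit, and MRPS36 encodes a protein that the structures of the ribosome do not contain. The letter in the symbol does not always give the subunit, since MRPS30 and MRPS18A carry an S and sit in the large subunit. The cells were Jurkat clone E6-1, an established human T lymphoblast line grown in suspension, from which total RNA was taken and sequenced as mRNA libraries. The 0 h group was of non-activated cells, and the 5 h and 12 h groups were of the same line activated for that time by 2 antibodies: anti-CD3, used at 10 µg/mL to coat the plates, and anti-CD28, added to the medium at 5 µg/mL. Each group had 3 libraries. No non-activated cells were kept in culture for 5 h or 12 h among these libraries, so activation and time in culture cannot be told apart, and all cells were of 1 leukaemic clone.

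The mitochondrial genome encodes only a handful of proteins, all of them core subunits of the respiratory chain and the ATP synthase, and the mitochondrial ribosome makes them. The ribosomal RNAs come from the mitochondrial genome, whereas every ribosomal protein is encoded in the nucleus, translated in the cytosol and imported. Some of these proteins have a counterpart in bacterial ribosomes and others exist only in mitochondria. When T cells are activated through CD3 and CD28 they grow, and production of both mitochondrial and cytosolic translation machinery is a known part of that growth.

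The libraries held between 4222258 counts (12 h replicate 1) and 9359187 counts (12 h replicate 2). All 78 members passed the filter on low counts, with 32 to 1206 counts per member and library, so no member rested on single reads. All 12 T-cell marker genes were at 1 CPM (counts relative to 1000000 counts of the TMM-scaled library size) or more on average, with a summed level of 5832 to 7051 CPM over the 9 libraries. Among these CD5 rose by 1.62 and 1.40 on the log2 scale at 5 h and 12 h, and CD4 fell by 1.74 and 2.06 from a level of 10.1, 9.42 and 10.4 CPM. Of 6 B-cell markers 1 reached 1 CPM, CD79A, whose list summed to 162 to 203 CPM at 0 h, 89.6 to 119 CPM at 5 h and 130.2 to 155 CPM at 12 h, and CD22 was at 0 counts. Of 6 myeloid markers 2 reached 1 CPM, with a sum of 6.14 to 12.0 CPM (CD68 rose by 0.68 at 12 h), and FCGR1A was at 0. Of 5 erythroid markers none reached 1 CPM, with HBA2, HBB and ALAS2 at 0, and the 6 fibroblast and epithelial markers summed to 2.94 to 7.85 CPM with COL1A2, COL3A1 and EPCAM at 0. Whether the CD79A counts came from the Jurkat cells themselves was not tested. The study's text calls the replicates biological without naming separate cultures, so p-values measure the spread between these libraries. In a bulk library, fewer cells of one kind and less RNA per cell cannot be told apart.

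Of 5 motifs searched, 3 stood in a larger share of the members' promoters than of all promoters, a description with no test. A RefSeq entry (GRCh38.p14, 250 bases before to 50 bases after the start, 300 bases in all) was found for 69 of the 78 members. The letters CCGGAAG, the core that ETS-family factors such as GABP bind, stood on either strand in 42.0% of the members' windows and in 14.4% of the windows of all 15272 genes. The YY1 letters AANATGGCG stood in 26.1% of the members' windows and in 4.92% of all windows. The NRF1 letters GCGCANGCG stood in 18.8% against 11.1%, the E-box CACGTG in 8.70% against 8.88%, and CCAAT in 28.99% against 36.5%. The 15272 genes were not matched to the members by expression and include genes too low to be tested, so the contrasts may not be particular to the members. N stands for any base, none of these motifs contains another, and a match is a description of letters, not a site. Of the 69 members, 14 had none of the 5 motifs. Shown here are stretches before the start of members with large differences in the following paragraphs, trimmed to the bases that no annotated exon covers, each 5′ to 3′ on the strand of its gene, with capitals for a motif match.
MRPL39, GRCh38.p14 chr21:25607518-25607681, minus strand: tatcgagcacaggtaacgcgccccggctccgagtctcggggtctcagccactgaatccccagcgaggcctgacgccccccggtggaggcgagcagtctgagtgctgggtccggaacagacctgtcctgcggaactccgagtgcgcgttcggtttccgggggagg
MRPL50, GRCh38.p14 chr9:101398619-101398818, minus strand: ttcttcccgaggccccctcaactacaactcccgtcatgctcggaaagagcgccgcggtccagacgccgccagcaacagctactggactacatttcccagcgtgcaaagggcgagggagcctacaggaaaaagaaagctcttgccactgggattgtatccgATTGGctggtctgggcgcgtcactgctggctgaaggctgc
MRPS33, GRCh38.p14 chr7:141014984-141015094, minus strand: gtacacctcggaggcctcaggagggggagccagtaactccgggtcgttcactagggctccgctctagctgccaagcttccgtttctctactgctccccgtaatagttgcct
MRPS17, GRCh38.p14 chr7:55951677-55951792, plus strand: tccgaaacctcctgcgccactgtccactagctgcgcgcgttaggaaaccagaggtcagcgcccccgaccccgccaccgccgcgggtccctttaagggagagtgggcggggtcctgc
MRPS34, GRCh38.p14 chr16:1773156-1773206, minus strand: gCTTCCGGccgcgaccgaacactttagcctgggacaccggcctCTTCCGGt

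The capitals in MRPL50 mark CCAAT read on the other strand, and those in MRPS34 mark 2 ETS cores read on the other strand, beside another one just downstream of the printed bases. MRPL39, whose mRNA rose most, held none of the 5 motifs in its 300 bases. MRPS33 and MRPS17, whose mRNAs fell at 12 h, showed none in the printed bases, and their windows held NRF1 letters and an ETS core (MRPS33) and CCAAT (MRPS17) outside them. The window of MRPL50 held YY1 letters after the start. In the expression test described in the next paragraph, of 29 members with the ETS core 2 were higher and 8 lower at 5 h, and 3 were higher and 6 lower at 12 h. Of 18 members with the YY1 letters 3 were higher and 1 lower at 5 h, and 3 higher and 2 lower at 12 h. Of 13 members with the NRF1 letters 3 were higher and 3 lower at 5 h, and 4 were lower at 12 h. Of 6 with the E-box 2 were higher and 2 lower at 5 h, and 2 lower at 12 h, and of 20 with CCAAT 5 were higher and 4 lower at 5 h, and 2 higher and 5 lower at 12 h. Among all genes tested 24.9% were higher and 24.8% lower at 5 h, and 26.3% higher and 24.8% lower at 12 h, and no set was tested against the others.

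Across the members, many mRNAs differed by a little and in both directions after activation. Differences were tested with edgeR's quasi-likelihood test over the 12036 genes that passed the filter, with Benjamini-Hochberg adjustment over all of them, and a gene is called when its adjusted p is under 0.05. At 5 h, 31 of 78 members were called against 0 h, 13 higher and 18 lower. Of all genes tested 49.7% were called, 24.9% higher and 24.8% lower, so the members' share of 39.7% lay below the background. Their median log2 difference was -0.07, beside 0.00 for all genes. At 12 h, 29 of 78 members were called, 10 higher and 19 lower, which is 37.2% of the members beside 51.1% of all genes (26.3% higher and 24.8% lower), with a median of -0.08 beside 0.00.

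Most members changed little. At 5 h 85.9% of the members lay within 0.5 log2 units of no difference, beside 65.3% of all genes, and at 12 h 89.7% did, beside 63.8%. All genes were not matched to the members by level. The differences are relative to the scaled counts of each library, so amounts of mRNA per cell were not measured. The same band held 97.4% of the cytosolic ribosomal protein genes at 5 h and 42.1% at 12 h. It held 90% and 85% of the mitochondrial aminoacyl-tRNA synthetases, and 76.7% and 90% of the factors that assemble the ribosome. Narrow change was thus not particular to the members. A called difference of at least 2-fold was found for 11.9% of all genes at 5 h and for 1 member, MRPL39. At 12 h it was found for 12.0% of all genes and for 0 members in the edgeR test, which had 32 members at an unadjusted p under 0.05. Called in 1 or both comparisons with 0 h were 45 members. Of these, 3 were higher at both times (MRPL10, MRPL39 and MRPL50), 10 were lower at both, and 2 were higher at 5 h and lower at 12 h (MRPL15 and MRPS35). The 2 comparisons share the 0 h libraries, so these counts are not independent. The same counts were not made over all genes, so they cannot be called high or low for the members. The number called at 5 h fell from 31 to 20 without 0 h replicate 3 and to 20 without 5 h replicate 1. The share of all genes called at 5 h fell as well, from 49.7% to 42.3% and 42.0%.

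**Figure D1:**
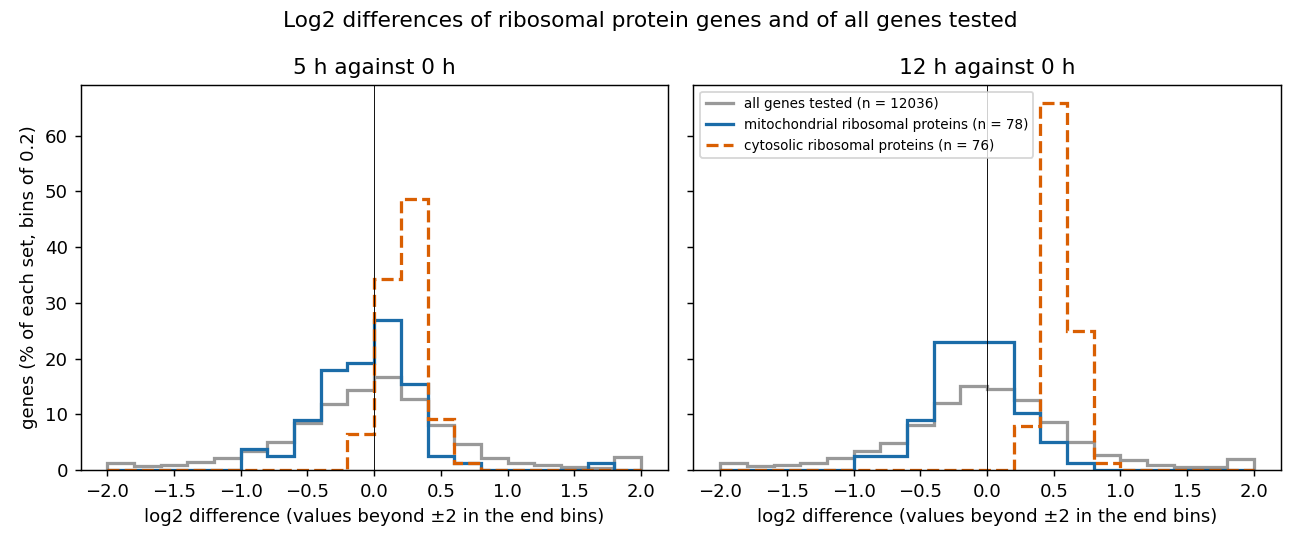
Log2 differences from 0 h (x axis, bins of 0.2) as a percentage of each gene set (y axis) at 5 h (left) and 12 h (right), for all 12036 genes tested, the 78 mitochondrial and the 76 cytosolic ribosomal protein genes. The mitochondrial set stays centred near 0, with a single member, MRPL39, far to the right at 5 h, whereas the cytosolic set lies at a median of 0.51 at 12 h.

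The split between rises and falls depended on the scaling. Scaling by library totals alone moved the median of all genes to -0.12 at 5 h and -0.11 at 12 h, and with it 3 members were higher and 26 lower at each time. Of all genes 50.7% were called at 5 h and 53.0% at 12 h by this scaling, and their split into higher and lower was not counted. Relative to that shift the members' medians, -0.19 and -0.19, stood close to where they stood in the edgeR test with TMM scaling. The rises that were still called by library totals were those of MRPL39, MRPS30 and MRPL10 at 5 h and of MRPL39, MRPL50 and MRPS5 at 12 h.

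MRPL39 had the largest difference of any member. It encodes a large-subunit protein without a bacterial counterpart and lies on chromosome 21 (GRCh38, 25585656 to 25607517, minus strand), where no other annotated gene overlaps it. MRPL39 was at 41.9, 30.9 and 33.2 CPM at 0 h, at 124, 109 and 103 CPM at 5 h and at 49.3, 46.99 and 53.6 CPM at 12 h. The 5 h libraries were all above the 12 h libraries, and these were all above the 0 h libraries. The log2 difference was 1.66 ± 0.11 (SE) at 5 h, a 3.16-fold higher level (edgeR adjusted p = 1.81e-10), and 0.49 ± 0.12 (SE) at 12 h, a 1.41-fold higher level (edgeR adjusted p = 0.00175). Between 5 h and 12 h it fell by 1.16 on the log2 scale (edgeR adjusted p = 1.62e-07). In counts, its share of the members' summed counts was 1.04% ± 0.151 (SD, n = 3) before activation, 3.26% ± 0.283 after 5 h and 1.52% ± 0.1004 after 12 h. Each of these 3 calls held in all 13 alternative analyses of its comparison, with log2 differences between 1.54 and 1.79 at 5 h. For the members below, the left-out libraries that lost a call are given. Some of these calls were also lost under library totals, DESeq2 or limma.

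Among the genes around MRPL39, JAM2 took a similar course and the others did not. Within 500000 bases on either side, 4 other genes were tested. JAM2, which encodes a junctional adhesion molecule, was at 0.128, 0.747 and 1.22 CPM at 0 h and at 5.26, 3.78 and 4.7 CPM at 5 h, a rise from a level of few counts. Its log2 differences from 0 h were 2.67 at 5 h (edgeR adjusted p = 7.64e-05) and 1.43 at 12 h (edgeR adjusted p = 0.0310). From 5 h to 12 h it fell by 1.24 (edgeR adjusted p = 0.0219). The 0 h and 12 h libraries overlapped, and whether JAM2 and MRPL39 are linked was not tested. ATP5PF, a subunit of the ATP synthase, fell by 0.30 and 0.34 on the log2 scale at 5 h and 12 h, and GABPA, a subunit of the ETS factor GABP, had differences of 0.22 and 0.19 that were not called (edgeR adjusted p = 0.0985 and 0.160). APP rose at both times, by 0.68 and 1.92, with its higher level at 12 h.

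**Figure D2:**
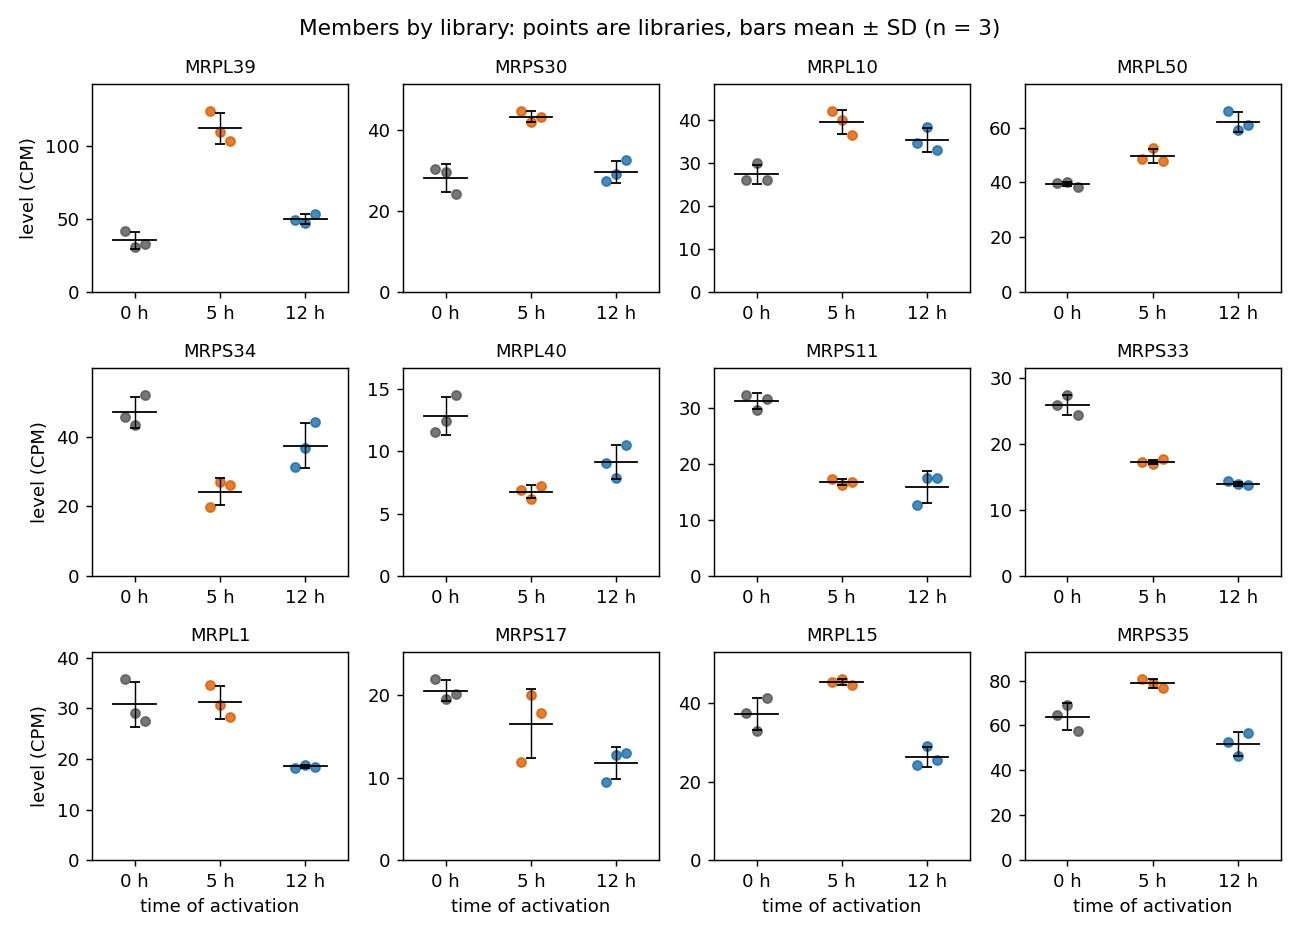
Level in CPM (y axis, from 0) of 12 members in each library by time of activation (x axis). Points are libraries, and bars give the mean ± SD of 3 libraries; MRPL39 stands out at 5 h, and MRPS11 and MRPS33 are low at both times.

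In the large subunit 11 members rose and 12 fell at 5 h, and 6 rose and 10 fell at 12 h, of 51. These calls were 45.1% and 31.4% of its members, beside 49.7% and 51.1% of all genes tested. The stalk region, where translation factors dock, showed members that went separate ways. MRPL10, the protein that anchors the stalk, was at 26.2, 30.05 and 26.1 CPM at 0 h, at 42.2, 40.0029 and 36.7 CPM at 5 h and at 34.7, 38.5 and 33.2 CPM at 12 h. Both activated groups lay above every 0 h library, with log2 differences of 0.53 ± 0.12 (SE) (edgeR adjusted p = 0.000666) and 0.38 ± 0.12 (SE) (edgeR adjusted p = 0.0105), of which the 12 h call was lost without 12 h replicate 2. MRPL11, its neighbour at the stalk base, was at 50.9, 55.5 and 60.02 CPM at 0 h and at 38.3, 45 and 45.7 CPM at 5 h. It fell by 0.37 at 5 h (edgeR adjusted p = 0.0174), and at 12 h its groups overlapped. The 5 h call was lost without 0 h replicate 3 or 5 h replicate 1, and by limma. MRPL12, the stalk protein itself, was not called at either time, with log2 differences of -0.21 ± 0.15 (SE) at both.

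MRPL1 forms the other stalk, where spent tRNA leaves. MRPL1 was at 35.8, 29 and 27.4 CPM at 0 h, at 34.6, 30.7 and 28.2 CPM at 5 h and at 18.3, 18.9 and 18.4 CPM at 12 h. The 0 h and 5 h libraries overlapped, and all 12 h libraries lay below both. It fell by 0.73 at 12 h against 0 h (edgeR adjusted p = 0.000129) and by 0.75 against 5 h (edgeR adjusted p = 0.000248), whereas its 5 h difference was 0.02 ± 0.13.

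Other members of the large subunit had small rises at 5 h. MRPL3, which reaches toward the peptidyl transferase centre, was at 154, 129 and 130.4 CPM at 0 h and at 178, 162 and 164 CPM at 5 h, a rise of 0.28 ± 0.10 (SE) (edgeR adjusted p = 0.01999). MRPL45, the mitochondria-specific protein near the tunnel exit that ties the ribosome to the inner membrane, was at 51.7, 41.9 and 51.2 CPM at 0 h and at 59.2, 57.6 and 64.7 CPM at 5 h, a rise of 0.32 ± 0.11 (SE) (edgeR adjusted p = 0.0149). MRPL19 rose by 0.28 ± 0.11, MRPL47 by 0.28 ± 0.10 and MRPL37 by 0.23 ± 0.09 at 5 h, and the last of these was lost in 9 of 13 alternatives. Neither MRPL3 nor MRPL45 had a called difference at 12 h, where MRPL3 stood at -0.05 ± 0.10 and MRPL45 at 0.10 ± 0.11. MRPL44, a mitochondria-specific protein with a ribonuclease III fold, rose by 0.41 at 5 h, from 29.02, 32.1 and 26.3 CPM to 44.5, 37.03 and 34.6 CPM. MRPL58, a peptidyl-tRNA hydrolase that frees stalled ribosomes, was not called, at 0.08 ± 0.13 and -0.03 ± 0.14. The 5 h calls were lost without single libraries: MRPL3 without 0 h replicate 2, 0 h replicate 3 or 5 h replicate 1, MRPL45 without 0 h replicate 2 or 5 h replicate 3, MRPL44 without 0 h replicate 3 or 5 h replicate 1, MRPL19 without 0 h replicate 2 or 3 or 5 h replicate 1 or 3, MRPL47 without 0 h replicate 1 or 3 or 5 h replicate 1 or 2, and MRPL37 without 0 h replicate 2 or 3 or any 5 h library.

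Besides MRPL39, the largest 5 h rise was that of MRPS30, a mitochondria-specific protein of the large subunit in spite of its S. MRPS30 was at 30.4, 29.6 and 24.2 CPM at 0 h, at 44.7, 41.9 and 43.1 CPM at 5 h and at 27.3, 29 and 32.4 CPM at 12 h. The 5 h libraries were above all others, and the 0 h and 12 h libraries overlapped. It rose by 0.62 ± 0.12 at 5 h (edgeR adjusted p = 0.000172), stood at 0.09 ± 0.12 at 12 h, and fell by 0.54 between 5 h and 12 h (edgeR adjusted p = 0.00149).

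MRPL50, also without a bacterial counterpart, had the largest rise of any member at 12 h and was the only member called in the same upward direction in all 3 comparisons. MRPL50 was at 39.8, 40.1 and 38.4 CPM at 0 h, at 48.4, 52.7 and 47.9 CPM at 5 h and at 66.1, 58.99 and 60.9 CPM at 12 h. No 2 groups overlapped. Its log2 differences from 0 h were 0.34 ± 0.10 (SE) at 5 h (edgeR adjusted p = 0.00841, lost without 5 h replicate 2) and 0.65 ± 0.10 (SE) at 12 h (edgeR adjusted p = 1.67e-05). Its rise from 5 h to 12 h was 0.31, lost without 5 h replicate 1, 5 h replicate 3 or 12 h replicate 1. MRPL55 rose by 0.46 and MRPL52 by 0.44 at 12 h, with MRPL52 at 18.9, 21.97 and 27.6 CPM at 0 h and 24.4, 33.8 and 33.6 CPM at 12 h, so that its groups overlapped. MRPL51 rose by 0.32. The 12 h call of MRPL55 was lost without 0 h replicate 2 or 12 h replicate 2, that of MRPL52 without 0 h replicate 1, 12 h replicate 2 or 12 h replicate 3, and that of MRPL51 without 0 h replicate 2, 12 h replicate 2 or 12 h replicate 3. All of these calls were also lost by library totals and by limma, and that of MRPL55 by DESeq2 as well.

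The falls in the large subunit were led by MRPL40 and MRPL18 at 5 h. MRPL40, a mitochondria-specific protein, was at 11.5, 12.4 and 14.5 CPM at 0 h, at 6.92, 6.22 and 7.21 CPM at 5 h and at 9.03, 7.85 and 10.5 CPM at 12 h. Every activated library lay below every 0 h library, and the fall was 0.92 on the log2 scale at 5 h (edgeR adjusted p = 0.000299). At 12 h the log2 difference was -0.50 ± 0.18 (SE) (edgeR adjusted p = 0.0234), a call lost without 0 h replicate 3 or 12 h replicate 2, and by DESeq2. MRPL18, a protein of the central protuberance, was at 38.99, 42.5 and 45.6 CPM at 0 h, at 29.02, 25 and 23.2 CPM at 5 h and at 28.6, 31.5 and 36.9 CPM at 12 h. It fell by 0.72 at 5 h (edgeR adjusted p = 7.39e-05) and by 0.38 at 12 h, where the call was lost without 0 h replicate 3. MRPL41 fell by 0.62 at 5 h (edgeR adjusted p = 0.0226, lost without 0 h replicate 3 or 5 h replicate 1, and by limma) from a low level of 14.6, 10.9 and 18.8 CPM. MRPL17, which lines the tunnel exit in bacteria, was at 50.9, 47.4 and 58.1 CPM at 0 h and 28.8, 37.4 and 39.1 CPM at 12 h, a fall of 0.55 (edgeR adjusted p = 0.000856).

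**Figure D3:**
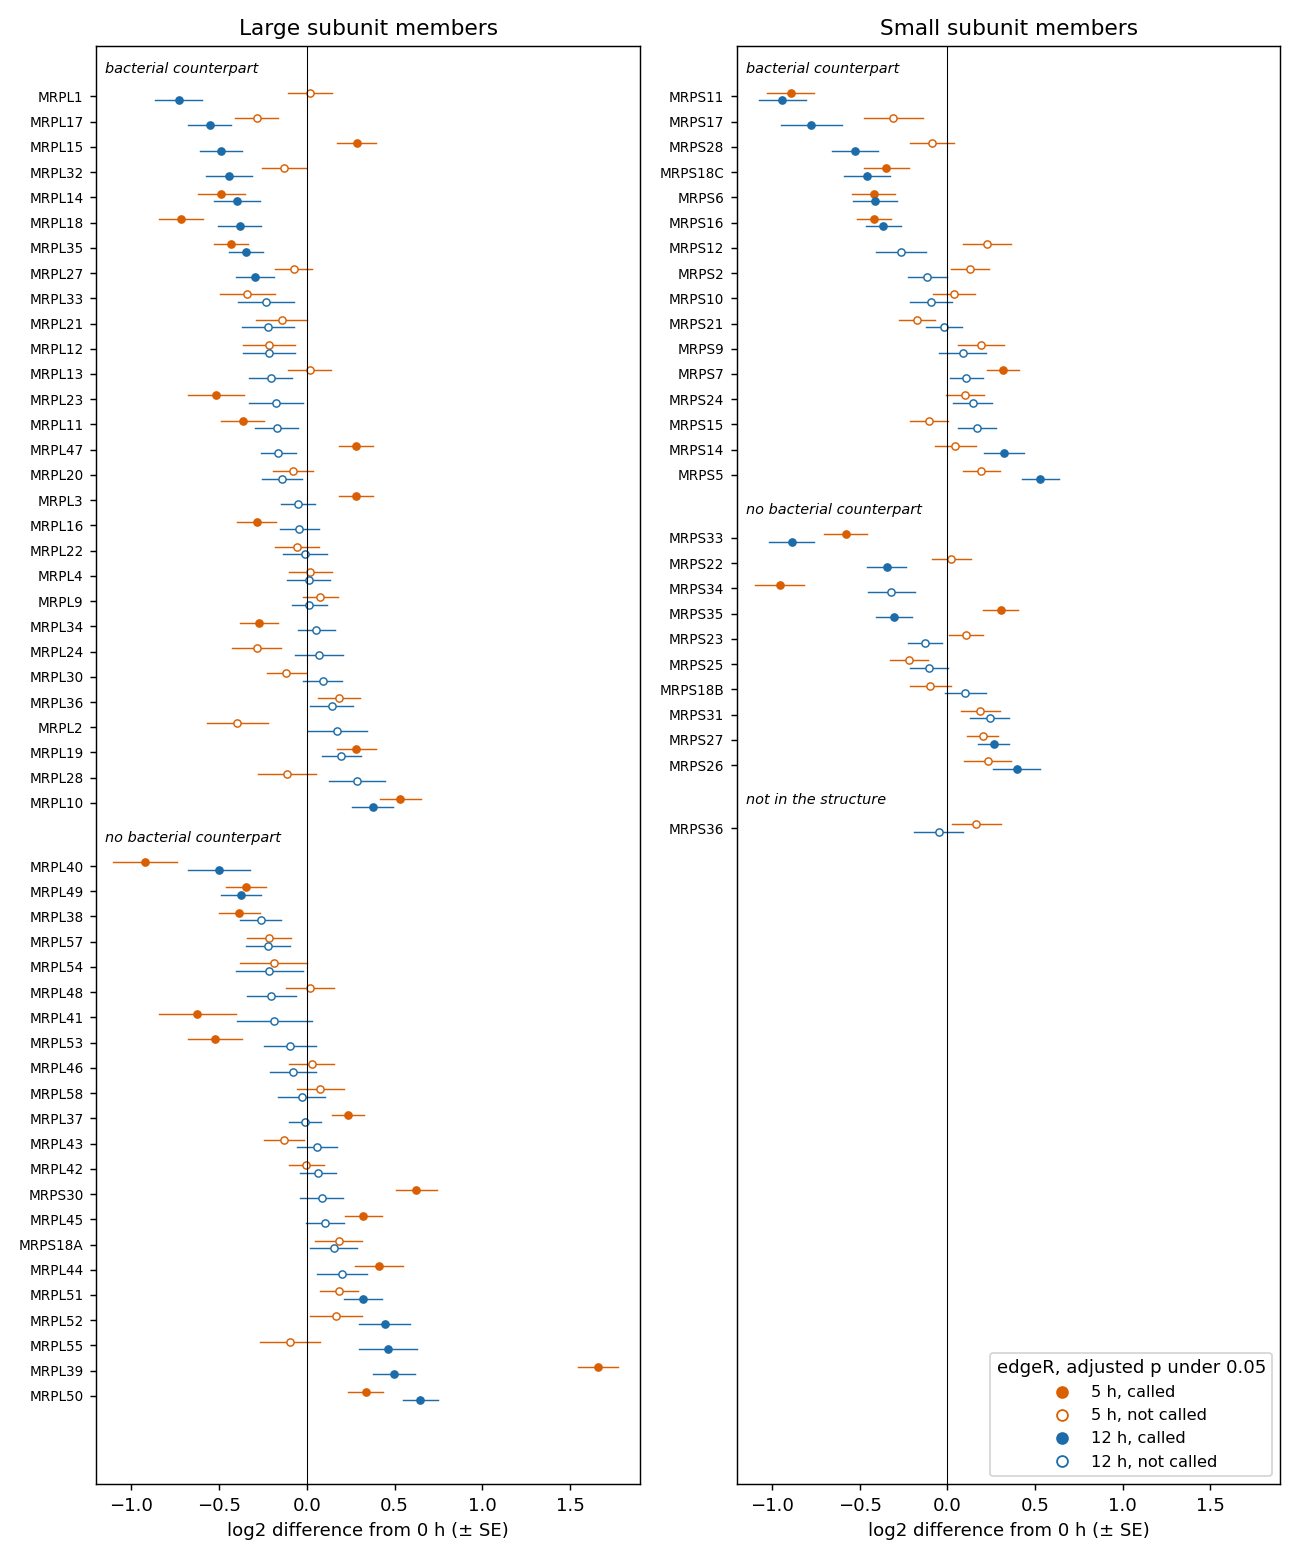
Log2 difference from 0 h ± SE (x axis) of each of the 78 members (y axis) at 5 h (orange) and 12 h (blue), with filled points for an edgeR adjusted p under 0.05. Large-subunit members are on the left and small-subunit members on the right, each split by a bacterial counterpart; most points lie within 0.5 of no difference.

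In the small subunit 2 members rose and 6 fell at 5 h, and 4 rose and 9 fell at 12 h, of 26. That is 30.8% called at 5 h and 50% at 12 h, beside 49.7% and 51.1% of all genes tested. MRPS11, a protein of the platform that holds the messenger RNA, had the largest fall of any member at 12 h. MRPS11 was at 32.3, 29.6 and 31.6 CPM at 0 h, at 17.3, 16.4 and 16.8 CPM at 5 h and at 12.7, 17.6 and 17.5 CPM at 12 h. All activated libraries were below all 0 h libraries, while the 5 h and 12 h libraries overlapped. The falls were 0.89 on the log2 scale at 5 h (edgeR adjusted p = 1.07e-05) and 0.94 at 12 h (edgeR adjusted p = 6.46e-06), a level 1.92-fold lower than at 0 h. MRPS33, a small mitochondria-specific protein, took a similar course. MRPS33 was at 25.95, 27.5 and 24.4 CPM at 0 h, at 17.3, 17.03 and 17.7 CPM at 5 h and at 14.4, 13.96 and 13.8 CPM at 12 h. Its 3 groups did not overlap, with falls of 0.58 at 5 h (edgeR adjusted p = 0.000567) and 0.89 at 12 h (edgeR adjusted p = 7.92e-06).

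MRPS34, a mitochondria-specific protein, had the largest fall of any member at 5 h and stood between the other groups at 12 h by its mean. MRPS34 was at 45.5, 43.4 and 51.96 CPM at 0 h, at 19.7, 26.9 and 26.01 CPM at 5 h and at 31.2, 36.7 and 44.1 CPM at 12 h. The 5 h libraries were below all others, and the 12 h libraries overlapped those of 0 h. It fell by 0.96 at 5 h (edgeR adjusted p = 9.32e-06), stood at -0.32 ± 0.14 at 12 h, a difference that was not called (edgeR adjusted p = 0.0539), and rose by 0.64 between 5 h and 12 h (edgeR adjusted p = 0.00173). MRPS17 was at 21.99, 19.6 and 20.1 CPM at 0 h, 11.9, 20.0015 and 17.9 CPM at 5 h and 9.52, 12.8 and 13.03 CPM at 12 h, with a fall of 0.77 at 12 h (edgeR adjusted p = 0.000972). The 0 h and 5 h groups overlapped and the 12 h group was below 0 h. Its exons overlap those of NIPSNAP2 on the same strand, so its counts are uncertain. MRPS28 fell by 0.53 at 12 h, from 31.5, 30.6 and 36.96 CPM to 25.9, 19.2 and 24.9 CPM, with no overlap.

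Rises in the small subunit were fewer. MRPS5, a protein near the entry of the messenger RNA, was at 54.5, 53.2 and 57.6 CPM at 0 h, 58.5, 61.9 and 68.9 CPM at 5 h and 69.3, 89.8 and 78.03 CPM at 12 h. It rose by 0.53 at 12 h (edgeR adjusted p = 0.000282), with all 12 h libraries above the other groups. MRPS26 rose by 0.40, MRPS14 by 0.32 and MRPS27, a protein with pentatricopeptide repeats, by 0.26 at 12 h. Levels of MRPS27 were 81.4, 74.7 and 74.4 CPM at 0 h and 89.1, 93.8 and 93.7 CPM at 12 h, without overlap. MRPS7, a protein of the head, was at 55.7, 54.3 and 55.7 CPM at 0 h and 69.5, 68.9 and 68.6 CPM at 5 h, a rise of 0.32 ± 0.09 (edgeR adjusted p = 0.00647). The 12 h calls were lost for MRPS26 without 0 h replicate 3, 12 h replicate 2 or 12 h replicate 3, for MRPS14 without 0 h replicate 1, 0 h replicate 3, 12 h replicate 1 or 12 h replicate 2, and for MRPS27 without 0 h replicate 2 or 0 h replicate 3. All of these calls were also lost by library totals, and that of MRPS26 by limma as well.

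MRPS12, a protein of the decoding centre, was not called against 0 h, at 0.23 ± 0.14 and -0.26 ± 0.14, and fell by 0.49 between 5 h and 12 h (edgeR adjusted p = 0.0115, lost without 5 h replicate 2 or 12 h replicate 3). Of the 3 paralogues of the bacterial protein S18, only MRPS18C was called against 0 h. MRPS18C, which takes the place of S18 in the small subunit, was at 50.6, 45.4 and 41.5 CPM at 0 h, 31.9, 43.5 and 32.4 CPM at 5 h and 33.4, 30.4 and 36.4 CPM at 12 h. It fell by 0.35 at 5 h, a call lost without 0 h replicate 1, 0 h replicate 2, 5 h replicate 1 or 5 h replicate 3, and by 0.46 at 12 h (edgeR adjusted p = 0.00601). MRPS18A stood at 0.18 ± 0.14 and 0.15 ± 0.14, and MRPS18B at -0.10 ± 0.12 and 0.10 ± 0.12. Whether the paralogues differed from each other was not tested. MRPS36, which is known as a subunit of the 2-oxoglutarate dehydrogenase complex, stood at 0.17 ± 0.14 and -0.05 ± 0.14 and was not called.

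The members with a bacterial counterpart and those without could be set side by side. With a counterpart, 6 of 45 were higher and 11 lower at 5 h (median -0.10), and 3 were higher and 14 lower at 12 h (median -0.14). Without one, 7 of 32 were higher and 7 lower at 5 h (median 0.03), and 7 were higher and 5 lower at 12 h (median -0.02). The shares called were 37.8% at each time with a counterpart, and 43.8% and 37.5% without one. Of all genes tested 49.7% and 51.1% were called at 5 h and 12 h. MRPS18A and MRPS18B, though paralogues of S18, were counted as without a counterpart, and MRPS18C as with one. No test of the difference between the 2 sets was made.

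Between 5 h and 12 h, 20 of 78 members were called, 8 higher and 12 lower at 12 h, which is 25.6% of the members beside 36.1% of all genes (18.1% higher and 18.0% lower). Of the 13 members that rose at 5 h, 7 fell again by 12 h (MRPL3, MRPL15, MRPL37, MRPL39, MRPL47, MRPS30 and MRPS35), and of the 18 that fell at 5 h, 4 rose again (MRPL18, MRPL34, MRPL53 and MRPS34). Of these later calls that of MRPL37 was lost in 11 of 13 alternatives, among them without each 5 h library in turn and without 12 h replicate 1 or 3. The later call of MRPL18 was lost in 8, among them without 5 h replicate 2 or 3 and without 12 h replicate 2 or 3, and that of MRPL3 in 3, among them without 5 h replicate 1 or 12 h replicate 2. These counts share the 5 h libraries between the comparisons, so a library that is high or low at 5 h enters both. How often all genes reversed in this way was not counted, so the reversals cannot be called particular to the members. MRPL15, a protein of the core of the large subunit, went past its starting level. MRPL15 was at 37.3, 32.9 and 41.2 CPM at 0 h, at 45.4, 46.1 and 44.5 CPM at 5 h and at 24.2, 29.1 and 25.5 CPM at 12 h. The 12 h libraries lay below all others, and the 5 h libraries above all others. Its fall from 5 h to 12 h was 0.77 (edgeR adjusted p = 4.54e-05), its 12 h difference from 0 h was -0.49 ± 0.12, and its 5 h rise of 0.28 ± 0.11 had an edgeR adjusted p of 0.0425 that was lost without each 5 h library in turn and without 0 h replicate 1 or 0 h replicate 2.

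MRPS35 took the same course, from 64.8, 69.2 and 57.3 CPM at 0 h to 80.7, 78.8 and 76.6 CPM at 5 h and 52.5, 46.3 and 56.7 CPM at 12 h, a fall of 0.61 between 5 h and 12 h (edgeR adjusted p = 0.000143). Its groups did not overlap. The 5 h rise, 0.31 ± 0.10, was lost without 0 h replicate 3 or 5 h replicate 1, and the 12 h fall, 0.30, without 0 h replicate 1, 0 h replicate 2 or 12 h replicate 2. MRPL34 rose by 0.33 and MRPL53 by 0.43 between 5 h and 12 h, after falls of 0.28 and 0.52 at 5 h, of which that of MRPL34 was lost without 0 h replicate 1, 0 h replicate 3, 5 h replicate 1 or 5 h replicate 3. MRPL2 rose by 0.57 (edgeR adjusted p = 0.0153) and MRPL55 by 0.56 (edgeR adjusted p = 0.0133) between 5 h and 12 h, with MRPL2 spread from 19.5 to 35 CPM at 12 h. The last 2 calls were lost without 5 h replicate 1 or 12 h replicate 2, and that of MRPL2 also without 12 h replicate 3. Those of MRPL34 and MRPL53 were lost without 5 h replicate 1, 5 h replicate 3 or 12 h replicate 3, and that of MRPL53 also without 12 h replicate 2. The number of members called between 5 h and 12 h fell from 20 to 12 without 5 h replicate 1, to 13 without 5 h replicate 3 and to 12 without 12 h replicate 2. In the same order the share of all genes called fell from 36.1% to 27.3%, 28.3% and 27.0%.

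Summed over the 78 members, the share of a library's counts was 0.359% ± 0.00379 (SD, n = 3) in non-activated cells, 0.333% ± 0.00388 after 5 h and 0.321% ± 0.0223 after 12 h. By library the shares were 0.362%, 0.355% and 0.360% at 0 h, 0.332%, 0.337% and 0.329% at 5 h, and 0.297%, 0.326% and 0.341% at 12 h. Every activated library was below every 0 h library, and the exact two-sided permutation test gave p = 0.1 for both comparisons, the smallest value that 3 against 3 libraries allow. Relative to TMM-scaled library sizes the 5 h difference changed sign, to 0.00269 percentage points above 0 h (exact permutation p = 0.7), so its direction depends on the scaling. At 12 h the same sizes left a difference of -0.0122 percentage points (exact permutation p = 0.6), and the groups then overlapped. Between 5 h and 12 h the shares overlapped (exact permutation p = 0.6), and without 12 h replicate 1 their difference changed sign.

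Cytosolic ribosomal protein mRNAs took a different course. Their 76 genes summed to 4.25% ± 0.162 of a library's counts in non-activated cells, to 4.63% ± 0.255 after 5 h and to 5.697% ± 0.589 after 12 h. In the edgeR test 33 of the 76 were higher and 0 lower at 5 h, with a median of 0.21, and 76 were higher at 12 h, with a median of 0.51. The log2 ratio of the mitochondrial to the cytosolic sum, which needs no scaling between libraries, was -3.56, -3.52 and -3.61 in the 0 h libraries, -3.78, -3.87 and -3.75 in the 5 h libraries, and -4.10, -4.26 and -4.08 in the 12 h libraries. No 2 groups overlapped: the mean ratio was 0.851 times that of 0 h at 5 h and 0.669 times at 12 h (exact two-sided permutation p = 0.1 for each, the smallest possible). The ratio of large-subunit to small-subunit sums was 1.903 ± 0.0387 at 0 h, 2.012 ± 0.0113 at 5 h and 1.94 ± 0.0691 at 12 h. At 5 h it was higher than in every 0 h library, by 0.08 on the log2 scale (exact permutation p = 0.1). Without MRPL39 the difference was 0.03.

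**Figure D4:**
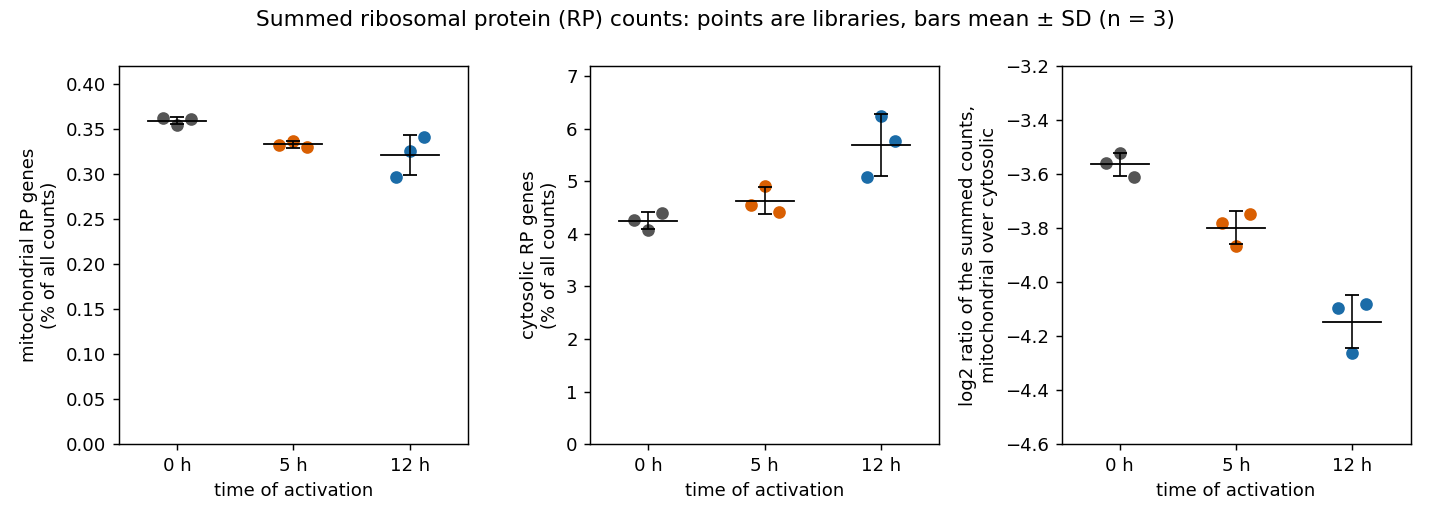
Share of all counts taken by the 78 mitochondrial (left) and the 76 cytosolic (middle) ribosomal protein genes, and the log2 ratio of the sums (right), by time of activation (x axis). Points are libraries, and bars give the mean ± SD of 3 libraries; the ratio lies lower at 5 h and lower again at 12 h, with no overlap between the groups.

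Levels could be set against each other per kilobase of transcript, using each gene's median coding transcript length in GENCODE 29. Averaged over the 9 libraries, the highest members were MRPL51 at 141 CPM per kilobase, MRPL42 at 139.9, MRPL3 at 92.5 and MRPL19 at 86.9. The lowest were MRPL40 at 6.90, MRPS17 at 8.84, MRPS11 at 9.66 and MRPL41 at 9.94 CPM per kilobase. MRPL42, among the highest, was also among the steadiest, at 131, 132 and 117 CPM at 0 h, 138, 117 and 125 CPM at 5 h and 146, 115 and 137 CPM at 12 h, with log2 differences of 0.00 ± 0.10 and 0.06 ± 0.10. The order rests on the length chosen: by the union of all exons MRPL42 moved from rank 2 to rank 67, MRPL19 from 4 to 23 and MRPL41 from 75 to 57, while MRPL40, MRPS17 and MRPS11 were at ranks 75, 70 and 77 of 78.

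A trait that the symbols did not select for was a nearby start of another gene. Starts here are the outermost GENCODE ends of the genes, not the RefSeq starts of the promoter windows. Of the 78 members, 29 (37.2%) had the start of another coding gene within 1000 bases on the opposite strand, beside 2533 of 19433 coding genes (13.03%). These coding genes were not matched to the members by expression. By their RefSeq starts MRPL11, MRPL36, MRPL41 and MRPS22 lie more than 1000 bases from the partner's start. In some of these pairs the genes overlap at their starts, as MRPL14 and TMEM63B do. Some pairs also share exons, as MRPL49 and FAU do, and their counts may share reads, since use of strand in the counting is not given. In 25 such pairs both genes were tested. At 5 h 11 of the 25 partners were called (49.7% of all genes were), and both genes were called in 4 pairs, in the same direction in 3. At 12 h 15 partners were called (51.1% of all genes were), and both genes were called in 7 pairs, in the same direction in 3 and in opposite directions in 4. Between 5 h and 12 h 10 partners were called (36.1% of all genes were), and both genes in 3 pairs, in opposite directions in 2. Against 0 h MRPL50 and the zinc-finger gene ZNF189 both rose, ZNF189 by 1.07 at 5 h and 0.40 at 12 h, and MRPL18 and TCP1, a subunit of the cytosolic chaperonin, both fell, TCP1 by 0.34 and 0.62. From 5 h to 12 h these were the 2 opposite pairs, with MRPL50 at 0.31 and ZNF189 at -0.67, and MRPL18 at 0.34 and TCP1 at -0.28. FAU, which encodes a cytosolic ribosomal protein, stood at 0.03 at 5 h and rose by 0.53 at 12 h, while its partner MRPL49 fell by 0.35 and 0.38, calls that were lost without 0 h replicate 2 (both) or 5 h replicate 3 (the 5 h call). The sole pair of 2 members starts 34 bases apart: MRPS11 fell by 0.89 and 0.94, whereas MRPL46 stood at 0.03 ± 0.13 and -0.08 ± 0.13, with 27.7, 27.5 and 21.96 CPM at 0 h, 25.7, 27.6 and 25.2 CPM at 5 h and 26.4, 22.03 and 25.3 CPM at 12 h.

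**Figure D5:**
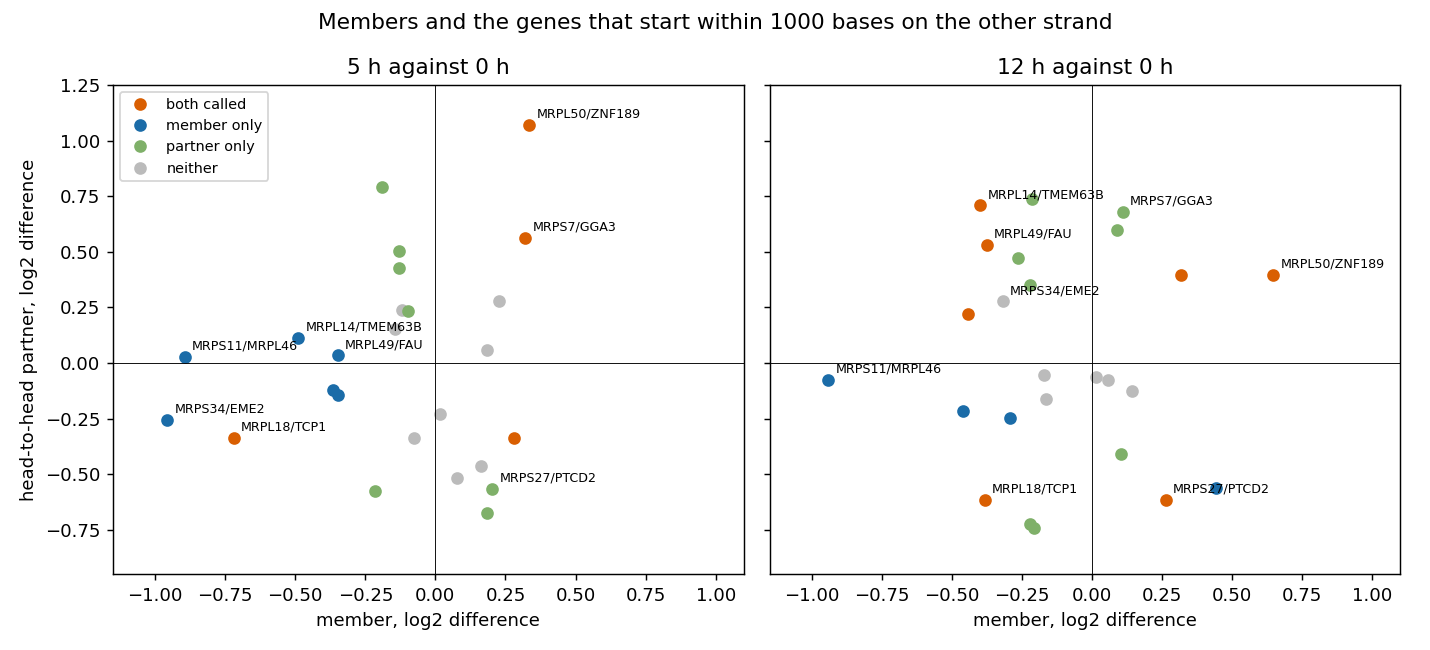
Log2 difference from 0 h of 25 members (x axis) and of the gene that starts head to head with each by GENCODE starts (y axis), at 5 h (left) and 12 h (right). Colour gives which gene of the pair was called in the edgeR test; points lie in all quadrants, and both genes were called in 4 pairs at 5 h and 7 pairs at 12 h.

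Counts for some members carry reads that could belong elsewhere. Exons of 34 members overlap those of another coding gene, and use of strand in the counting is not given in the sources used here. For 34 members, named pseudogenes exist (75 in all, none of them in the count table). Among the 44 members without an exon overlap 9 were higher and 10 lower at 5 h, and 6 higher and 11 lower at 12 h. Among the 44 without a named pseudogene 7 were higher and 9 lower at 5 h, and 7 higher and 7 lower at 12 h. The shares called at 5 h and 12 h were 43.2% and 38.6% without an exon overlap. Without a named pseudogene they were 36.4% and 31.8%, beside 49.7% and 51.1% of all genes tested. MRPL39, MRPS30, MRPS34 and MRPL10 belong to both of these sets, whereas the exons of MRPS5 overlap those of ZNF514. Named pseudogenes exist for MRPS5, for MRPL50, which had the largest 12 h rise, and for MRPL40. They also exist for MRPS11, MRPS33 and MRPS17, which had the largest 12 h falls.

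The other genes of mitochondrial translation were called in both directions, and their counts are to be read beside the 49.7% and 51.1% of all genes called at 5 h and 12 h and the 36.1% called between these times; no list was tested against other genes. Of 5 ribosomal proteins under other symbols, 1 was higher and 1 lower at 5 h, and 2 were higher at 12 h. PTCD3, a small-subunit protein with pentatricopeptide repeats, was at 122, 143 and 136 CPM at 0 h, 229, 206 and 199 CPM at 5 h and 246, 185 and 186 CPM at 12 h, rises of 0.66 and 0.62, and CHCHD1 fell by 0.34 at 5 h. Of 30 factors that assemble the ribosome, 6 were higher and 4 lower at 5 h, and 3 higher and 6 lower at 12 h. MTERF3 rose by 0.57 at 5 h and MPV17L2 fell by 0.93, while MRM2, a methyltransferase of the large ribosomal RNA, fell by 0.88 at 12 h and GTPBP6, a recycling factor, rose by 0.76. Of 15 genes listed as translation factors, 4 were higher and 2 lower at 5 h, and 1 was higher and 1 lower at 12 h. The recycling factor MRRF was at 43.2, 42.6 and 40.7 CPM at 0 h and 79.2, 72.2 and 71.8 CPM at 5 h, rises of 0.82 at 5 h and 0.77 at 12 h, and the elongation factor TSFM fell by 0.35 and 0.76. MTERF2 had the largest rise of this list at 5 h, 1.21, from a level of 0.511, 1.94 and 1.46 CPM. It is named as a mitochondrial transcription termination factor, not a translation factor, but is counted among the 4 that were higher.

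The mitochondrial aminoacyl-tRNA synthetases, which load the tRNAs, were higher in 9 and lower in 1 of 20 cases at 5 h, and higher in 8 and lower in 4 at 12 h. From 5 h to 12 h, 1 was higher and 5 were lower. WARS2 rose by 1.06 at 5 h, from 7.16, 10.6 and 5.98 CPM to 19.2, 16.4 and 13.3 CPM, TARS2 rose by 0.64 at 12 h, and CARS2 fell by 0.48 and 0.70. Of 20 transcription and RNA-processing factors tested, 9 were higher and 2 lower at 5 h, and 3 higher and 6 lower at 12 h. Between 5 h and 12 h, 9 of these 20 were lower and 0 higher in the edgeR test. MTPAP, the mitochondrial poly(A) polymerase, rose by 0.91 and 0.79, FASTK fell by 0.56 at 5 h, and TFAM, which packages and transcribes mitochondrial DNA, fell by 0.75 at 12 h, with 116, 98.2 and 102 CPM at 0 h and 59.1, 54.7 and 74.2 CPM at 12 h.

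Of 14 genes that maintain mitochondrial DNA, 3 were higher and 6 lower at each time. POLG2, a subunit of the mitochondrial DNA polymerase, rose by 1.05 at 12 h, and the kinase TK2 fell by 1.42 at 5 h and 1.41 at 12 h, from 43.9, 51.3 and 54.4 CPM at 0 h to 19.7, 21.6 and 14.4 CPM and 19.8, 19.8 and 16.9 CPM. PRIMPOL fell by 1.65 and 1.40, and the helicase TWNK rose by 0.50 at 5 h. Of the mitochondrially encoded messengers, which the mitochondrial ribosome translates, 7 were in the table. Of these, 2 were higher at 5 h and 1 at 12 h, with MT-CO1 at 17276, 16608 and 18913 CPM at 0 h and at 31444, 21920 and 21308 CPM at 12 h, a rise of 0.50 (edgeR adjusted p = 0.00556), and MT-ATP8 up by 0.39 at 5 h. Of 8 tested genes that insert the products into the membrane, 2 were higher and 2 lower at 5 h, and 3 higher and 2 lower at 12 h, with OXA1L up by 0.46 and 0.52 and TIMM21 down by 0.38 and 0.44. COX20 rose by 0.90 at 12 h.

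Among 11 tested transcription factors known to act on nuclear genes for mitochondria, 5 were higher and 2 lower at 5 h, and 1 higher and 3 lower at 12 h. GABPB1, the partner of GABPA in the ETS factor GABP, was at 37.1, 37.8 and 40.4 CPM at 0 h, 102, 90.4 and 94.8 CPM at 5 h and 46.4, 41.2 and 47.7 CPM at 12 h. It rose by 1.32 at 5 h (edgeR adjusted p = 6.82e-10) and stood at 0.22 ± 0.10 at 12 h. MYC, a driver of ribosome production, was at 222, 212 and 200.2 CPM at 0 h, 280.3, 261 and 287 CPM at 5 h and 82.2, 94.4 and 94.3 CPM at 12 h, a rise of 0.38 followed by a fall of 1.22 against 0 h. ESRRA rose by 0.61 at 12 h, and GABPB2 fell by 0.40 and 0.57. What these factors did to the members was not tested.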

How the data were processed

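Messenger RNA of 9 Jurkat E6-1 libraries was measured, 3 each at 0 h, 5 h and 12 h of activation. The authors deposited a table of whole-number counts per gene and a table of log2 values. Per the submitters' processing notes, cutadapt, RSEM, DESeq2 and GRCh38.p13 were used, with no role or version given. Since RSEM estimates counts, the whole numbers may be rounded estimates. How strand was treated and which annotation was counted is not given in the sources used here. Tested on the files, the deposited log2 values are made from the counts: each count was scaled by a factor of its library, 1 was added, and the log2 was taken. Columns were matched to samples by the labels.

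Counts were fitted with edgeR 4.0.16 (R 4.3.3) by its quasi-likelihood test, with TMM scaling, filterByExpr and all 9 libraries in 1 fit, which left 12036 genes, and p-values were adjusted by Benjamini-Hochberg over all of them. CPM uses TMM-scaled library sizes. Sums were compared by exact two-sided permutation tests (scipy 1.17.1). Replicates differed beyond counting noise, with chi-square over degrees of freedom of 2.87 to 8.92, so each was kept as its own sample, and the code for the fit was tested on simulated data. Coordinates, exon overlaps and lengths are from GENCODE 29 (GRCh38) and promoters from RefSeq. Members, lists and tests were chosen with earlier results of these data known. Named members are the 6 largest called rises and falls against 0 h at each time, the 3 largest between 5 h and 12 h, called members against the more frequent direction, the 4 highest and lowest per kilobase, and members with set roles. Of other lists, the called genes with the largest rise and fall are named, with further genes chosen after their values were seen. The MRPS34 promoter and the sums without MRPL39 were also added after seeing the data. Promoters of MRPS11 and MRPS5 were covered by exons and are not shown. Alternatives were other scalings, no filter, a replicate block, only the compared groups, each library left out, DESeq2 1.42.0, and limma 3.58.1 on the deposited log2 values.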

Additional observations from a re-analysis of the deposited data

Results flagged for a closer look

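For 20 members the difference from 0 h was not the same at 12 h as at 5 h by a test of that difference itself, the edgeR comparison of 12 h with 5 h. Given as 12 h minus 5 h on the log2 scale, 12 were lower at 12 h. In the large subunit these were MRPL39 at -1.16, MRPL15 at -0.77, MRPL1 at -0.75, MRPS30 at -0.54, MRPL47 at -0.44, MRPL3 at -0.33 and MRPL37 at -0.24. In the small subunit they were MRPS35 at -0.61, MRPS12 at -0.49, MRPS17 at -0.47, MRPS28 at -0.44 and MRPS22 at -0.37. The 8 that were higher at 12 h were MRPS34 at 0.64, MRPL2 at 0.57, MRPL55 at 0.56, MRPL53 at 0.43, MRPL18 at 0.34, MRPS5 at 0.34, MRPL34 at 0.33 and MRPL50 at 0.31. Of these 20 differences, those of MRPL1, MRPL15, MRPL39, MRPL47, MRPS30, MRPS34 and MRPS35 were called in all 13 alternatives.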

How the results depend on the processing

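No called member changed direction in the alternatives run. Of 31, 29 and 20 members called at 5 h, at 12 h and between them, 12, 14 and 7 were called in all 13 alternatives. Summed over these members and alternatives, 77, 48 and 60 calls were lost. Leaving out 1 library at a time gave 20 to 34 called members at 5 h, 21 to 30 at 12 h and 12 to 23 between them; leaving out a library of the groups compared gave 20 to 29 at 5 h. With a library left out, the share of all genes called ranged from 42.0% to 51.5% at 5 h and from 45.1% to 51.2% at 12 h. Between 5 h and 12 h it ranged from 27.0% to 35.8%. Limma called 13 members between 5 h and 12 h, and 26.3% of all genes. Deviations from the group means had correlations from -0.14 to 0.16 between same-numbered libraries of different groups. Between differently numbered ones they ranged from -0.20 to 0.19. With 3 libraries per group these values cannot show whether the numbers pair the samples, and the main fit used no pairing. With the replicate block the counts were 32, 31 and 20, and the smallest exact p of the sums was 0.25. With TMM-scaled library sizes the difference in the members' share was 0.00269 percentage points at 5 h and -0.0122 at 12 h, and without MRPL39, added after seeing the data, it was -0.0335 at 5 h. Without 12 h replicate 1 the share differed by 0.000634 between 5 h and 12 h, opposite in sign to the value over all libraries. The log2 ratio of large to small subunit differed by 0.0308 at 5 h and -0.0143 between 5 h and 12 h without MRPL39, and by 0.00547 at 5 h and -0.0391 at 12 h as a difference of median log2 CPM; the cause was not tested. Depth limits members such as MRPL40 and MRPL41, whose counts are low.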
